A study of Mus musculus with 6 samples.

Results

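The genes described here encode the proteins of the mitochondrial ribosome, and were taken as the protein-coding genes of the count files whose mouse symbol is Mrpl or Mrps followed by a number and at most 1 further letter. The rule found 78 genes of the 53801 in the files, 49 with an Mrpl symbol (large subunit) and 29 with an Mrps symbol (small subunit). RNA came from maxillary prominences of C57BL/6 mouse embryos at E12.5, in 3 wild-type (WT) samples and 3 Wnt1cre; Rosa26Dlx2/- (Dlx2OE) samples. In Dlx2OE embryos, Cre recombinase under Wnt1 control acts in the neural crest lineage and switches on a Dlx2-3xFlag transgene in the Rosa26 locus, so that tissue of other origin in the prominence keeps its own Dlx2 level. The study's methods name bought C57BL/6J animals as its WT mice. If the WT embryos shared litters with Dlx2OE embryos, they may carry Cre or the transgene alone. Their genotype beyond the WT label is not stated, and no separate control of that kind was analysed here. The labels give 7 littermates and the study's methods 6 as the source of the RNA, so a sample may hold more than 1 embryo, and p-values measure the spread between these samples.

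The mitochondrial ribosome translates the few messenger RNAs of mitochondrial DNA, all of which code for subunits of the respiratory chain and ATP synthase. Its ribosomal RNAs are transcribed within the organelle, whereas its proteins are encoded in the nucleus, made in the cytoplasm and imported. Some of these proteins have a counterpart in the bacterial ribosome, and others were added in the course of mitochondrial evolution. Systematic names carry this history: a name that begins with u or b marks a protein family present in bacteria, and one that begins with m a protein found in mitochondria. By structure, Mrps18a (mL66) and Mrps30 (mL65) belong to the large subunit in spite of their symbols, and Mrps36 is now known as a component of the oxoglutarate dehydrogenase complex. With these 3 placed by structure, the large subunit has 51 genes and the small subunit 26.

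Promoters of nuclear genes for mitochondrial proteins are known for sites of the transcription factors NRF1, of the ETS family (which includes GABP) and YY1. The following stretches run from 150 bases before to 50 bases after a RefSeq transcript start in GRCm38.p6. They are shown for those members called lower in Dlx2OE by edgeR (adjusted p under 0.05) that matched the promoter table. Mrpl37, the member with the log2 fold change nearest 0, is shown as well. Capitals mark the letters searched on both strands, which were GCGCANGCG for NRF1, CCGGAAG for ETS factors, AAGATGGCG for YY1 and GGGCGG for the GC box. None of these 4 strings contains another.
Mrpl12 (chr11:120484487-120484686, forward strand): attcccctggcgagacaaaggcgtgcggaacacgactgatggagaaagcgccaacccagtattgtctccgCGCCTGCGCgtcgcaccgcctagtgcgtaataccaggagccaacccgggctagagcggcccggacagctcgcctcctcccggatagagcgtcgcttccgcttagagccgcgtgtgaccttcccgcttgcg
Mrpl52 (chr14:54426759-54426958, forward strand): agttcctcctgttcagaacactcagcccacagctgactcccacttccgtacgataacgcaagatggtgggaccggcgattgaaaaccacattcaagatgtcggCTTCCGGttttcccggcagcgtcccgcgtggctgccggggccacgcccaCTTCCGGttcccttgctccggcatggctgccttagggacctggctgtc
Mrps16 (chr14:20393585-20393784, reverse strand): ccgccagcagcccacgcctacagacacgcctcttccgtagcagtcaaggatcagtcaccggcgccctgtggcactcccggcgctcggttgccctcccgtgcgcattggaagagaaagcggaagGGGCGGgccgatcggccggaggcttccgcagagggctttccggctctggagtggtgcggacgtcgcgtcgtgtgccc
Mrps21 (chr3:95871465-95871664, reverse strand): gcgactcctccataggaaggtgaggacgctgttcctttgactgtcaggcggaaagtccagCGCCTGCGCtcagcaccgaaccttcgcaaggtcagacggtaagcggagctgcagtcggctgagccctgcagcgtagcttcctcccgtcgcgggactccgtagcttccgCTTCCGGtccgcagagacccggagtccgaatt
Mrps33 (chr6:39810887-39811086, reverse strand): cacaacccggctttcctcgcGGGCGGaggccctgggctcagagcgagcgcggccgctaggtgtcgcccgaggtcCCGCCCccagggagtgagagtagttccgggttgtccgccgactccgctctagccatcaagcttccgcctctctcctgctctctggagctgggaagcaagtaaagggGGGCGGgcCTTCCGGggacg
Mrpl37 (chr4:107066817-107067016, reverse strand): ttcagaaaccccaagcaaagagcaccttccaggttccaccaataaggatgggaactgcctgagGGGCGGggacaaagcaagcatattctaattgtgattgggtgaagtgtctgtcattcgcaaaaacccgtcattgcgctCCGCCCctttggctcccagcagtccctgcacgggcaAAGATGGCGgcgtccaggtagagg

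The Mrpl12 and Mrps21 stretches held the same 9 letters of the NRF1 string, CGCCTGCGC on the strand shown, at -80 to -72 and at -90 to -82 from the start. The ETS string stood in Mrpl52, at -47 to -41 and at 3 to 9, in Mrps21 at 19 to 25 and in Mrps33 at 39 to 45. The Mrps16 stretch held the GC box alone, and the Mrpl37 stretch held the YY1 string at 27 to 35, past the start. Over the whole 300 base windows of the table, 69 members matched, and 40 of them (58.0%) held the NRF1, ETS or YY1 letters, against 28.5% of the 11452 coding genes tested that had a promoter. The NRF1 letters stood in 16 of the 69 (23.2%, all promoters 12.7%), the ETS letters in 24 (34.8%, all 16.6%) and the YY1 letters in 8 (11.6%, all 2.84%). The GC box stood in 34 (49.3%, all 63.5%), CCAAT in 27 (39.1%, all 38.3%), CACGTG in 5 (7.25%, all 9.70%) and TATAAA in 4 (5.80%, all 7.11%). The members' median log2 fold change was -0.37 with and -0.40 without the NRF1 letters, -0.37 and -0.41 for the ETS letters, and -0.40 and -0.39 for the YY1 letters. These matches are descriptions of the letters and show no binding.

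The libraries held 26155500 to 31308813 counts on genes. Dlx2, the overexpressed gene, stood at 42.9, 35.0 and 45.2 CPM (counts scaled to a common library size) in WT samples 1 to 3 and at 119, 131 and 123 CPM in Dlx2OE samples 1 to 3, a log2 fold change of 1.60 ± 0.12 (SE; adjusted p = 0.00241, from edgeR with the Benjamini-Hochberg method over 17514 genes), which fits the labels. Neural crest mesenchyme markers (Prrx1, Twist1, Pdgfra and 4 others) were measured in all samples, with a summed level of 2213 to 2700 CPM in WT and 2956 to 3224 CPM in Dlx2OE. Of these 7 markers, 6 had a log2 fold change above 0 and 1 below. Twist1 alone was called higher by edgeR, and 3 markers by DESeq2. The third WT sample stood apart from the other WT samples for the genes described here: among WT samples it had the lowest value for 71 of 77 members, against 34.0% of all genes tested. Dlx2OE sample 3 had the most reads that overlapped no counted gene feature, 14.7% of its reads, against 5.03% to 7.82% in the other samples.

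Most mitoribosomal protein genes had lower values in Dlx2OE. Of the 77 members tested, 73 had a log2 fold change below 0 (all genes tested, 49.7%), and the median was -0.39 (all genes tested, 0.00), with the middle 50% between -0.55 and -0.30. A total of 6 members passed an adjusted p of 0.05, all lower: Mrpl52, Mrps21, Mrps16, Mrpl54, Mrpl12 and Mrps33. This is 7.79% of the members tested, against 6.45% of all genes called in either direction and 3.46% called lower. None was called higher by edgeR at an adjusted or an unadjusted p under 0.05, nor by DESeq2. At an unadjusted p under 0.05, 51 members were lower (66.2% of members, all genes 15.4%), and in 42 members (54.5%, all genes 17.3%) every Dlx2OE sample lay below every WT sample. The members have shorter transcripts than all genes tested (median 1339 against 2921 bases), and shares for genes of like length are given below. DESeq2, the tool of the study's methods, called 27 members lower (35.1%, all genes 7.11%). In bulk tissue, fewer cells of a type that is rich in these messages and less of each message per cell cannot be told apart.

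The call rests on single libraries in this design of 3 against 3. With edgeR, the number of members called lower was 41 without WT 3 and 11 without Dlx2OE 1, and 0 without any of WT 1, WT 2, Dlx2OE 2 or Dlx2OE 3, where 24 to 43 members still had an unadjusted p under 0.05. Calls over all genes moved as well: 7.14% of all genes were called lower without WT 3, 5.33% without Dlx2OE 1, and 0.222% to 0.793% without any of the other 4 samples. The median log2 fold change stayed between -0.52 and -0.33 in these 6 reduced sets.

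The largest decrease was that of Mrpl52 (ENSMUSG00000010406, chr14:54426909-54429756, forward strand), which encodes the protein mL52 of the large subunit. Its level was 98.8, 96.9 and 52.7 CPM in WT and 41.4, 37.3 and 36.3 CPM in Dlx2OE. The WT samples spread widely, since WT 3 was much nearer to Dlx2OE than to WT 1 and WT 2, yet the groups did not overlap. The log2 fold change was -1.11 ± 0.22 (SE, adjusted p = 0.0333). Per kilobase of transcript, Mrpl52 had the highest level of all large subunit genes in WT, 179 ± 56.4 RPKM (SD, n = 3).

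Mrpl54 (ENSMUSG00000034932, chr10:81264713-81266934, reverse strand) encodes mL54, another mitochondrial addition to the large subunit. It stood at 50.2, 60.0 and 42.9 CPM in WT and at 35.9, 28.6 and 27.1 CPM in Dlx2OE, with no overlap (log2 fold change -0.74 ± 0.16, adjusted p = 0.0380). Mrpl12 (ENSMUSG00000039640, chr11:120484613-120489065, forward strand) encodes bL12m, the mobile stalk protein that recruits translation factors to the ribosome. Its values were 49.3, 48.2 and 36.0 CPM in WT and 31.8, 24.3 and 22.7 CPM in Dlx2OE. WT 3 was again the lowest of the WT samples and lay above Dlx2OE 1 (log2 fold change -0.76 ± 0.17, adjusted p = 0.0427). Of the exon sequence of Mrpl12, 13.1% overlaps Gm16755, and reads in that part cannot be assigned with certainty.

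In the small subunit, Mrps21 (ENSMUSG00000054312, chr3:95862634-95871519, reverse strand) fell most. It encodes bS21m, and was the small subunit gene with the highest level per kilobase in WT, 126 ± 34.3 RPKM (SD, n = 3). Its level was 73.5, 68.6 and 42.4 CPM in WT and 30.4, 34.9 and 27.0 CPM in Dlx2OE, and the groups were apart (log2 fold change -1.0 ± 0.21, adjusted p = 0.0348). Mrps16 (ENSMUSG00000049960, chr14:20389304-20393634, reverse strand) encodes bS16m, a protein that binds the ribosomal RNA of the small subunit. It stood at 53.3, 52.1 and 35.6 CPM in WT and at 29.9, 25.6 and 23.1 CPM in Dlx2OE (log2 fold change -0.84 ± 0.18, adjusted p = 0.0356). Mrps33 (ENSMUSG00000029918, chr6:39801804-39810988, reverse strand), which encodes mS33, had 67.4, 65.2 and 43.4 CPM in WT and 36.8, 36.2 and 29.1 CPM in Dlx2OE (log2 fold change -0.79 ± 0.18, adjusted p = 0.0444). In all 6 called genes WT 3 was the lowest WT sample and still lay above the Dlx2OE samples. When each library was left out in turn, each of the 6 genes passed in 2 of the 6 reduced sets, and its largest adjusted p was between 0.136 and 0.167. With the study's further threshold of a log2 fold change beyond 1 or -1, Mrpl52 and Mrps21 remained (2 of 77, all genes 3.12%).

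**Figure D1:**
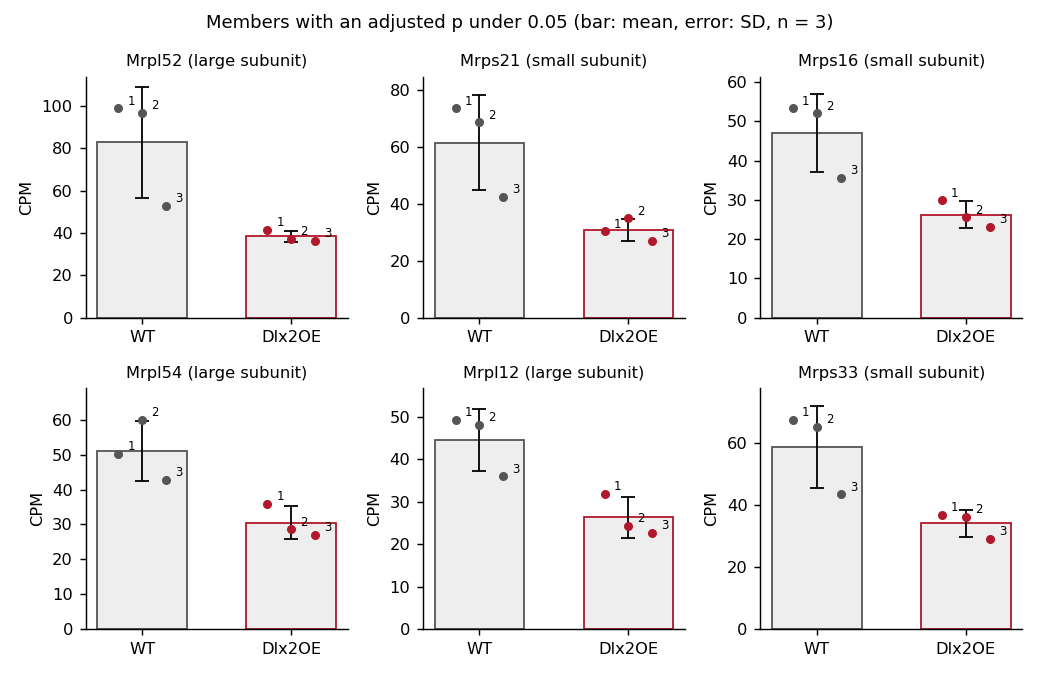
Level of the 6 called members in each sample, in CPM on axes that start at 0; points are samples with their replicate number, bars are means and error lines are SDs (n = 3). In each panel the third WT sample is the lowest of the WT samples and the 3 Dlx2OE samples lie below it.

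The next members by p did not pass. Mrpl42, whose product mL42 is part of the large subunit, stood at 121, 127 and 85.2 CPM in WT and at 76.4, 72.0 and 63.8 CPM in Dlx2OE (log2 fold change -0.65 ± 0.16, adjusted p = 0.0515 by the same edgeR test). Mrps24, which encodes uS3m at the entry of the messenger RNA channel, stood at 64.3, 74.7 and 43.5 CPM in WT and at 41.2, 35.8 and 30.2 CPM in Dlx2OE (log2 fold change -0.77 ± 0.20, adjusted p = 0.0603). In both genes the groups were apart, with WT 3 closest to Dlx2OE. Of the exon sequence of Mrps24, 15.4% overlaps Urgcp.

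Members at the other end of the range were near the median of all genes. The 4 members above 0 were all large subunit genes, and 2 of them, Mrpl9 and Mrpl37, are named here after their values were seen. Mrpl33 (bL33m) stood at 9.46, 8.13 and 7.89 CPM in WT and 8.40, 9.87 and 10.2 CPM in Dlx2OE (log2 fold change 0.16 ± 0.17). Mrpl19 (bL19m) stood at 34.7, 35.0 and 39.0 CPM in WT and at 39.8, 41.6 and 35.2 CPM in Dlx2OE (0.10 ± 0.11), and 36.0% of its exon sequence overlaps Gcfc2. Mrpl9 (bL9m) had a log2 fold change of 0.09 ± 0.12 and Mrpl37 (mL37) of 0.02 ± 0.09. The groups overlapped in all 4 genes. Among small subunit genes the smallest changes were those of Mrps2 (uS2m, -0.19 ± 0.10) and Mrps9 (uS9m, -0.19 ± 0.12). Mrps2 stood at 48.4, 46.3 and 44.7 CPM in WT and at 40.7, 44.4 and 37.5 CPM in Dlx2OE, and Mrps9 at 62.9, 56.0 and 46.0 CPM in WT and 48.1, 48.9 and 47.6 CPM in Dlx2OE, where WT 3 lay below every Dlx2OE sample. Mrpl53 could not be tested, since it had 0 counts in every library, which allows up to 0.0955 to 0.111 CPM per library at a floor of 3 counts. Of its exon sequence, 88.0% overlaps 2 other genes, and such reads are left out by the counting mode used.

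**Figure D2:**
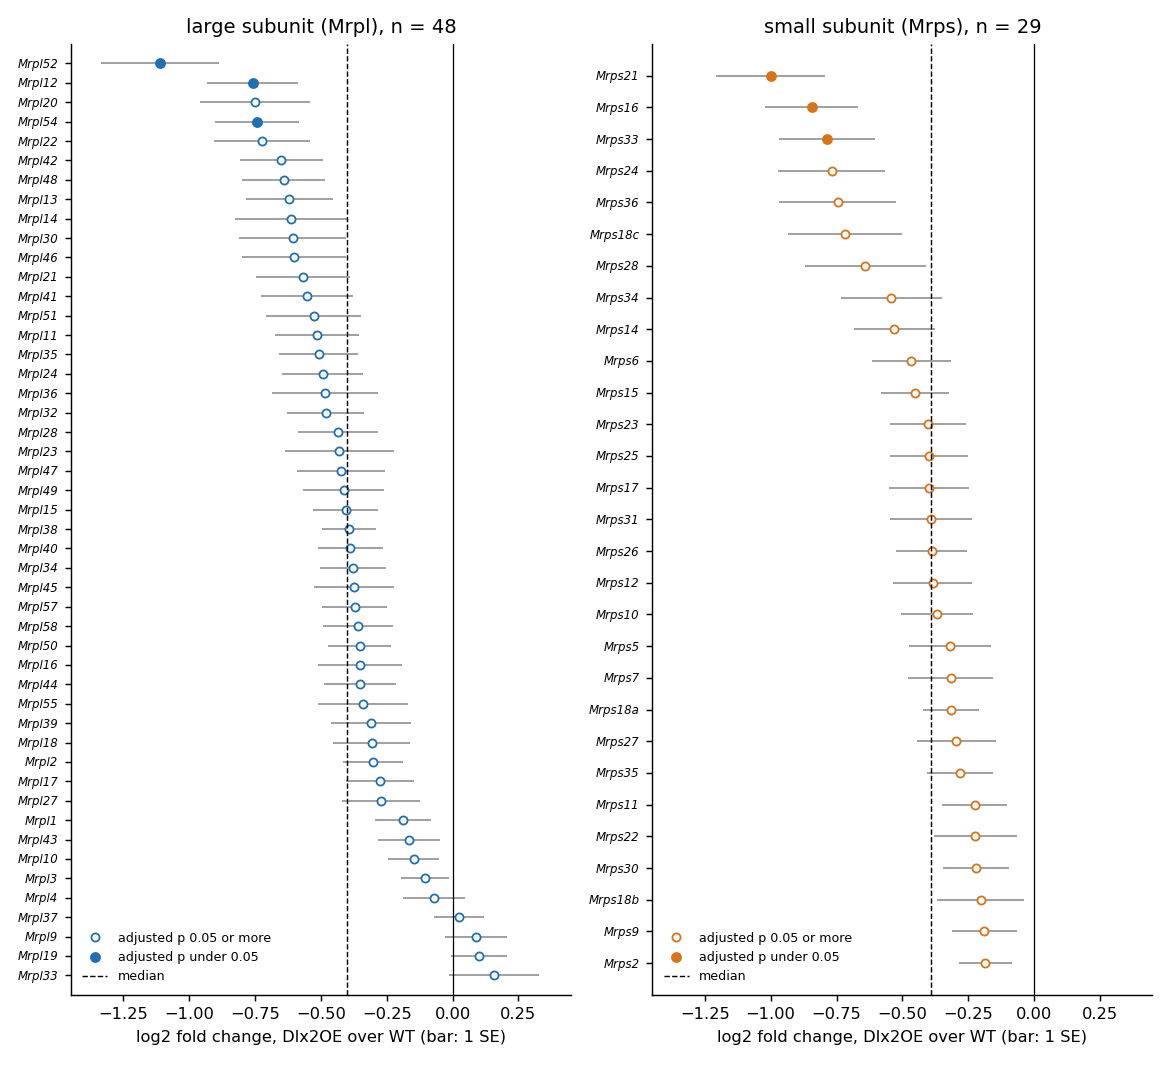
Log2 fold change of Dlx2OE over WT for each of the 77 members tested, split by symbol into the large and the small subunit; bars are 1 SE from edgeR, filled points passed an adjusted p of 0.05 and the dashed lines mark the medians. All 29 small subunit genes and 44 of 48 large subunit genes lie below 0.

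The medians of the subunits were close, and the difference between them was not tested. The median log2 fold change was -0.40 over 48 large subunit genes and -0.39 over 29 small subunit genes. Each subunit had 3 genes called lower by edgeR (large 6.25%, small 10.3%, all genes 3.46%). Every Dlx2OE sample lay below every WT sample in 24 of 48 large and in 18 of 29 small subunit genes (50% and 62.1%, all genes 17.3%). By structure in place of symbol the medians were -0.39 (50 genes) and -0.40 (26 genes). Members with a systematic name in u or b had a median of -0.41 (46 genes, 3 called lower, 6.52%). Members with a name in m had a median of -0.39 (30 genes, 3 called lower, 10%). The latter include Mrps18a and Mrps18b, which are homologs of bacterial S18. The summed level of all members averaged 3734 ± 611 CPM over WT samples and, 26.1% lower, 2761 ± 234 CPM over Dlx2OE samples (SD, n = 3), with 4107, 4066 and 3029 CPM in WT and 2948, 2837 and 2499 CPM in Dlx2OE. WT 3 was far below the other WT samples and just above Dlx2OE 1. Large subunit genes took 2.10, 2.15 and 2.11 times the CPM of small subunit genes in WT and 2.15, 2.12 and 2.12 times in Dlx2OE, a ratio that overlapped between the genotypes.

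Sample by sample, the members moved together. Relative to the mean of the WT samples, the median member stood at 0.14, 0.12 and -0.29 (log2) in WT 1 to 3 and at -0.30, -0.35 and -0.53 in Dlx2OE 1 to 3. Dlx2OE 3 held the lowest value of all 6 samples for 66 of 77 members. The median of all genes tested was between -0.02 and 0.01 in every sample.

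**Figure D3:**
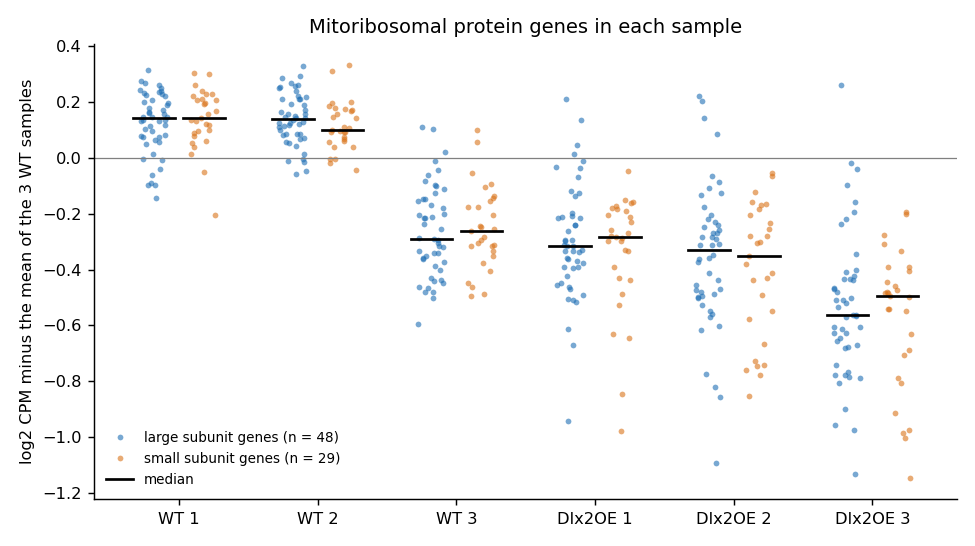
Log2 CPM of each member minus its mean over the 3 WT samples, by sample (x axis), for 48 large and 29 small subunit genes, with black lines at the medians. WT 1 and WT 2 lie above 0, WT 3 lies with Dlx2OE 1 and Dlx2OE 2, and Dlx2OE 3 is lowest.

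The 3 genes of the Mrps18 family, which are homologs of bacterial S18, differed in level. Mrps18a (mL66) was the most abundant per kilobase, at 37.1 ± 3.17 RPKM in WT (SD, n = 3), against 9.62 ± 1.02 RPKM for Mrps18b (mS40) and 7.73 ± 1.17 RPKM for Mrps18c (bS18m). None was called by edgeR, and DESeq2 called Mrps18c lower. Mrps18c had 6.70, 7.07 and 5.26 CPM in WT and 3.48, 4.46 and 3.62 CPM in Dlx2OE (log2 fold change -0.72 ± 0.22, adjusted p = 0.0797 with edgeR). Mrps18a had 34.0, 34.9 and 29.6 CPM in WT and 26.6, 26.6 and 26 CPM in Dlx2OE (-0.32 ± 0.11, adjusted p = 0.105 with edgeR). Mrps18b had 11.2, 10.8 and 9.14 CPM in WT and 8.57, 9.94 and 8.53 CPM in Dlx2OE (-0.20 ± 0.17), with overlapping groups. The difference between these 3 changes was not tested, and 23.2% of the exon sequence of Mrps18c and 30.5% of that of Mrps18b overlap other genes. Mrps30 (mL65), the small subunit symbol with the lowest level per kilobase in WT (6.47 ± 0.24 RPKM; SD, n = 3), stood at 20.7, 21.4 and 22.3 CPM in WT and 19.2, 19.7 and 16.4 CPM in Dlx2OE (-0.22 ± 0.13). Mrps36, which is no ribosomal subunit by structure, stood at 28.9, 26.7 and 16.7 CPM in WT and at 16.7, 14.0 and 12.4 CPM in Dlx2OE, with WT 3 and Dlx2OE 1 nearly level (-0.75 ± 0.22, adjusted p = 0.0784 with edgeR).

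Mrpl52 and Mrps21, the members with the largest decreases, have transcripts under 1 kb. The next were Mrps16 (-0.84), with a transcript of 2572 bases, and Mrps33 (-0.79), with 1107 bases. Past 1 kb the members' medians did not shrink further with length. The members' longest coding transcripts ran from 463 bases (Mrpl52) to 7300 bases (Mrpl17), with medians of 1368 bases in the large and 1197 bases in the small subunit. Across 77 members, Spearman's rho of the log2 fold change with transcript length was 0.34 (large 0.30, small 0.39). Across all 14751 coding genes tested it was 0.45. With coding length in place of transcript length, rho was 0.51 across the members, 0.36 in the large and 0.76 in the small subunit, and 0.40 across coding genes. With the genomic span rho was 0.11, and with the GC content of the transcript it was -0.07. These correlations run across genes measured in the same 6 libraries, and genes are not independent replicates.

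Members were compared with other coding genes of like length, as a description. Under 1 kb, the median log2 fold change was -0.55 for 23 members and -0.59 for 666 other coding genes, which were thus as low as the members. From 1 to 2 kb it was -0.35 for 29 members and -0.24 for 2795 other genes. From 2 to 4 kb it was -0.37 for 16 members and -0.04 for 5989 others, and at 4 kb or more -0.39 for 9 members and 0.18 for 5224 others. The distance between the medians was thus smallest for the shortest and largest for the longest transcripts. Under 1 kb, every Dlx2OE sample lay below every WT sample in 14 of 23 members and in 54.35% of the other coding genes. From 1 to 2 kb this held for 12 of 29 members and 30.98% of the others. From 2 to 4 kb it held for 11 of 16 members and 16.68%, and at 4 kb or more for 5 of 9 members and 6.662%. Mrpl17 (bL17m), with the longest transcript and a coding sequence of 528 bases, had the lowest level per kilobase of the large subunit genes in WT, 6.26 ± 0.72 RPKM (SD, n = 3). It stood at 42.7, 51.8 and 42.5 CPM in WT and at 41.7, 38.8 and 32.8 CPM in Dlx2OE (-0.27 ± 0.13, adjusted p = 0.199 with edgeR). By coding length, too, the distance between the medians was largest in the longest class. Under 450 bases the median was -0.54 for 22 members and -0.42 for 924 other genes. From 450 to under 600 bases it was -0.41 for 17 members and -0.29 for 833 others. From 600 to under 900 bases it was -0.39 for 23 members and -0.20 for 1984 others. At 900 bases or more it was -0.29 for 15 members and 0.06 for 10933 others.

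**Figure D4:**
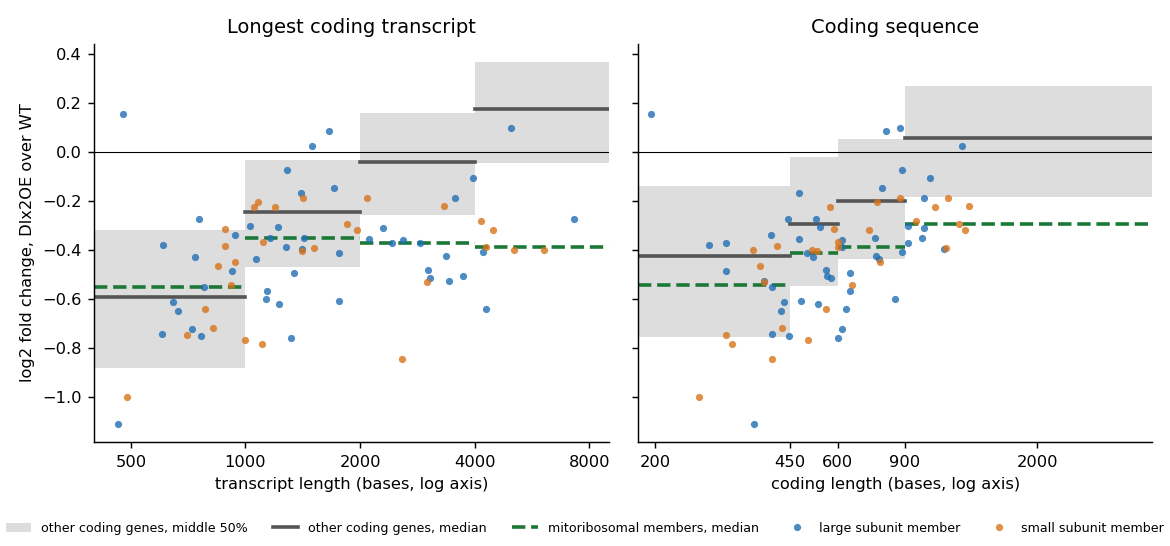
Log2 fold change of each member against the length of its longest coding transcript (left) and of its coding sequence (right), on log axes in bases; grey bands are the middle 50% and grey lines the median of the other coding genes in 4 length bins (the last bin also holds genes longer than the axis), and dashed lines are the members' medians. The grey line climbs from -0.59 to 0.18 with transcript length, whereas the dashed line lies between -0.55 and -0.35.

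The same gradient separated the libraries. Across coding genes, rho of transcript length with a sample's deviation from the mean of all 6 samples was -0.40, -0.47 and 0.03 in WT 1 to 3. In Dlx2OE 1 to 3 it was 0.26, 0.28 and 0.43. This is the order of the members' medians by sample, which were taken from the WT mean, apart from the exchange of WT 1 and WT 2. A loess correction for transcript length and GC content moved the members' median log2 fold change from -0.39 to -0.26. It left 67 of 77 members below 0 and 4 members called lower by edgeR (5.19% of members, all genes 2.92%), and rho with length across the members turned to -0.24. The part of length in the result was not tested further.

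Other genes of mitochondrial translation were compared by lists, which were not matched for transcript length. The median transcript was 1339 bases for the members and 2494 for the mitoribosomal subunits with other names. It was 2014 bases for assembly factors, 2606 for translation factors, 3228 for synthetases and 2943 for transcription and RNA handling. For genes of mitochondrial DNA it was 870.5 bases, and for regulators of mitochondrial biogenesis 4570. The 5 mitoribosomal subunits with other names had a median log2 fold change of -0.57, 4 of 5 below 0, and Gadd45gip1 (mL64) was called lower, with 15.5, 18.1 and 16.1 CPM in WT and 11, 8.92 and 9.27 CPM in Dlx2OE (log2 fold change -0.77 ± 0.15, adjusted p = 0.0317). In this gene WT 3 lay among the other WT samples. Genes that build or serve the ribosome were near the median of all genes. The 25 assembly factors, which modify ribosomal RNA or help the subunits mature, had a median of -0.05, and none was called by edgeR (2 lower and 1 higher at an unadjusted p under 0.05) or by DESeq2. The 12 translation factors had a median of -0.02 with none called by edgeR (2 lower and 2 higher unadjusted) or DESeq2. The 19 mitochondrial aminoacyl-tRNA synthetases, which load transfer RNAs, had a median of 0.03 with none called by edgeR (1 lower and 1 higher unadjusted) or DESeq2. Lars2, named after its values were seen, stood at 96.3, 626 and 219 CPM in WT and at 139, 141 and 3704 CPM in Dlx2OE, where sample 3 was far above all others. The 18 genes of mitochondrial transcription and RNA handling that were tested had a median of -0.04, none called by edgeR (3 lower and 3 higher unadjusted) and 1 called lower by DESeq2.

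Messages of mitochondrial DNA itself, the templates of this ribosome, also had lower values. All 12 genes tested were below 0 (median -0.74), in all 12 every Dlx2OE sample lay below every WT sample (all genes 17.3%), and 5 were called lower by edgeR. The smallest p was that of mt-Co2, a subunit of cytochrome c oxidase, at 19.3, 20.2 and 14.5 CPM in WT and 5.50, 4.84 and 4.58 CPM in Dlx2OE (log2 fold change -1.85 ± 0.19, adjusted p = 0.00541). It was followed by mt-Atp6, a subunit of ATP synthase, at 11.6, 11.5 and 9.65 CPM in WT and 4.46, 3.63 and 2.7 CPM in Dlx2OE (-1.60 ± 0.23, adjusted p = 0.0128), and by mt-Nd4l, a subunit of complex I, at 1.13, 1.06 and 1.09 CPM in WT and 0.24, 0.32 and 0.15 CPM in Dlx2OE (-2.19 ± 0.36, adjusted p = 0.0194). Near-identical nuclear copies of mitochondrial genes exist in the mouse genome, and the levels of these 3 genes are uncertain for that reason. More abundant messages of the list, named after their values were seen, had smaller changes. mt-Nd4, with a mean of 3044 CPM in WT, was called lower by edgeR (-0.81 ± 0.17, adjusted p = 0.0367). DESeq2 called 12 genes of the list lower, among them abundant ones that edgeR did not call. Of these, mt-Co1, with a mean of 18790 CPM in WT, had a log2 fold change of -0.53 ± 0.24. The changes were -0.63 ± 0.22 for mt-Cytb, -0.64 ± 0.19 for mt-Nd2, -0.56 ± 0.21 for mt-Nd1 and -0.37 ± 0.17 for mt-Nd5. For mt-Nd6, with a mean of 633 CPM in WT, it was -0.66 ± 0.18. The 12 regulators of mitochondrial biogenesis had a median of 0.13, with 9 above 0 and 3 below. DESeq2 called 3 of them higher and none lower. At an unadjusted p under 0.05 in edgeR, 5 were higher and 1 lower (Ppargc1a, -0.58 ± 0.21). Mycn, a transcription factor of the MYC family, was called higher by edgeR (0.67 ± 0.10, adjusted p = 0.0174). It stood at 41.2, 33.4 and 38.3 CPM in WT and 61.0, 57.9 and 60.5 CPM in Dlx2OE. Nrf1, whose letters were searched above, had a log2 fold change of 0.11 ± 0.08, Gabpa of -0.06 ± 0.11 and Yy1 of 0.14 ± 0.13. None of these 3 genes, named for that search, passed by edgeR.

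**Figure D5:**
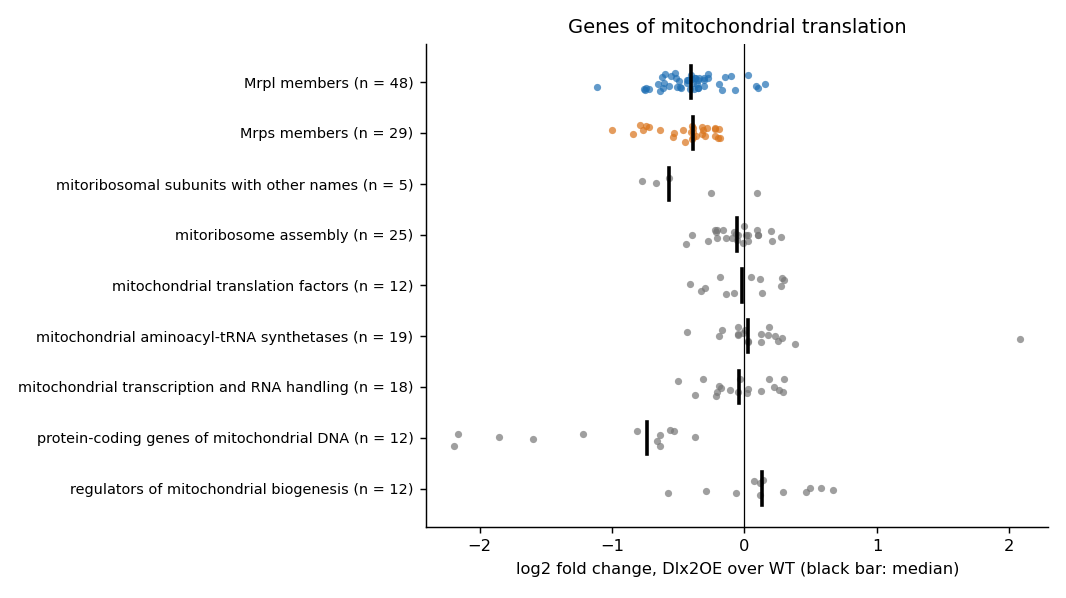
Log2 fold change of Dlx2OE over WT for the members, split by symbol, and for 7 lists of genes around mitochondrial translation; points are genes tested and black bars medians. The members, the subunits with other names and the genes of mitochondrial DNA have medians of -0.39 or lower, and the other lists have medians between -0.05 and 0.13. The lists were not matched for transcript length, with medians from 870.5 bases (mitochondrial DNA) to 4570 bases (regulators).

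Markers of other cell types were summed by list. Of 9 erythroid markers, 9 were below 0 and 3 called lower by edgeR, with a summed level of 3179 to 4128 CPM in WT and 1843 to 2417 CPM in Dlx2OE. Of 8 skeletal muscle markers tested, 8 were below 0 and none was called by edgeR (2 lower at an unadjusted p under 0.05) or DESeq2, with 180 to 393 CPM in WT and 78.9 to 236 CPM in Dlx2OE, and Tnnc2 was at 0 counts in every WT library. All 6 macrophage markers were below 0 (2 called lower, 56.2 to 61.4 CPM in WT and 28.8 to 41.0 CPM in Dlx2OE), as were all 6 endothelial markers (1 called lower, 277 to 416 CPM and 201 to 316 CPM). Of 7 epithelial markers, 4 were below 0 and 3 above, and 2 were called lower and none higher by edgeR (3 lower and 1 higher at an unadjusted p under 0.05) and by DESeq2, with 594 to 1076 CPM in WT and 478 to 1540 CPM in Dlx2OE. All 7 neuron markers were above 0, none called by edgeR (2 higher at an unadjusted p under 0.05) and 1 called higher by DESeq2, with 61.0 to 284 CPM in WT and 181 to 868 CPM in Dlx2OE. The summed levels of muscle, endothelial, epithelial and neuron markers overlapped between the genotypes, and those of erythroid and macrophage markers did not. The part of these cell types in the members' change was not tested.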

How the data were processed

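RNA from E12.5 maxillary prominences of 3 WT and 3 Wnt1cre; Rosa26Dlx2/- samples was poly-T selected and sequenced as 150 bp paired-end reads. The authors mapped the reads to mm10 with STAR 2.7.3a, counted them per gene with HTSeq 0.12.4 in union mode, which drops reads that overlap 2 genes, and deposited raw counts. The annotation release and strand setting are not given in the sources used here. Of each library, 16.8% to 25.3% of reads were assigned to no gene, and these stayed out of library sizes. Symbols, lengths and overlaps came from GENCODE M21 (GRCm38), which holds 53706 of 53801 identifiers, and promoters from RefSeq (GRCm38.p6).

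The test was run in edgeR 4.0.16 under R 4.3.3 (filterByExpr with a minimum count of 10, TMM, quasi-likelihood F test on genotype, Benjamini-Hochberg adjustment over 17514 genes, called at 0.05). Levels are TMM-scaled CPM, RPKM divides them by the kilobases of the longest coding transcript, and log2 levels use a prior count of 2. The floor was 3 counts, which covers counting error only, since PCR copies are not independent molecules. Alternatives were DESeq2 1.42.0, RLE factors, library size alone, other filters on low counts, a replicate block, a loess correction for length and GC content (span 0.5), removal of mitochondrial DNA and haemoglobin genes, other measures of length and of subunit, and leaving out each sample. Scripts were tested on simulated data.

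Members named are those called, the 4 smallest p in each subunit, the 2 highest and 2 lowest fold changes in each subunit, the extremes of transcript length and of level per kilobase, untested members, the Mrps18 family and members whose structure differs from their symbol, and, of other genes, Dlx2 and up to 3 called genes of each list by p. Members and lists were chosen with earlier results of these data known. Figures were drawn with matplotlib 3.10.9.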

Additional observations from a re-analysis of the deposited data

Results flagged for a closer look

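Reads that overlapped no counted gene feature, which enter no comparison, made up a larger share in every Dlx2OE sample than in any WT sample. Whether they lay in introns or between genes cannot be told from the counts. The share was 5.75%, 7.82% and 14.7% in Dlx2OE samples 1 to 3, against 5.03%, 5.43% and 5.25% in WT samples 1 to 3. Dlx2OE 3, with the largest share, was also the sample with the lowest level for 66 of 77 mitoribosomal genes and, with 3704 CPM, the highest level of Lars2. Without Dlx2OE 3 the members' median log2 fold change was -0.33, and edgeR called 0 members lower, with 28 lower at an unadjusted p under 0.05. The part of these reads in the members' change was not tested.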

How the results depend on the processing

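The members' medians kept their sign under all 15 refits, from -0.52 without WT 3 to -0.26 with the length and GC correction, and no member was called higher by any. The 6 members called lower became 27 with DESeq2 and 24 with no filter on low counts, 2 with a log2 fold change beyond 1 or -1 required, and 0 to 41 when each sample was left out. The replicate block gave 11 (14.3% of members, all genes 3.16%). The length and GC correction with the replicate block gave 0 (37 lower at an unadjusted p under 0.05), beside 4 with the correction alone. Same-numbered samples had correlations of their deviations of -0.07, -0.21 and 0.07, and of the 6 samples WT 3 alone correlated best with its own number. With 3 samples per group, these correlations cannot tell whether same-numbered samples shared a batch. Over all genes, edgeR's 1130 calls became 2417 with DESeq2, 2044 with no filter, 78 with the correction and the block together, and 79 to 2091 when each sample was left out.

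The Spearman correlation of the members' log2 fold change with length was 0.34, 0.51 with coding length, 0.11 with genomic span and 0.27 to 0.39 when each sample was left out, and it reversed to -0.24 with the length and GC correction, with and without the replicate block. That correction removes a trend with length fitted over all genes by its own construction. It also reversed small, uncalled changes: Mrpl19 to -0.0069 (with the block -0.0094), Mrps18b to 0.073 (0.070) and Mrps9 to 0.016 (0.018). Of 270 values of 18 named members, 6 reversed, 32 lost and 15 gained a call, and 217 kept direction and call. At depths of 26155500 to 31308813 counts on genes, the floor of 3 counts was 0.0955 to 0.111 CPM, below the level of each member tested.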

Other observations

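Many mitoribosomal genes lie head to head with another coding gene. Of 78 members, 23 (29.5%) had a coding gene on the other strand whose start lay within 1000 bp upstream or whose 5′ end overlapped by up to 200 bp, against 10.8% of 14751 coding genes tested. None of the neighbors within these limits is a mitoribosomal gene, and none was called by edgeR. Mrpl46 and Mrps11, 2 members on opposite strands whose 5′ ends overlap by more than 200 bp, fall outside the limits. The neighbors within the limits had a median log2 fold change of -0.05, whereas that of the 23 members was -0.39. The member was lower than its neighbor in 20 of 23 pairs. Mrpl54 (-0.74) starts 26 bp from Apba3 (-0.26), Mrps18c (-0.72) starts 29 bp from Helq (0.39), a DNA helicase, and Mrpl51 (-0.53) starts 100 bp from Ncapd2 (0.35), a condensin subunit. The pairs named here were chosen after their values were seen.

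Length differed within the pairs. The median transcript was 1424 bases for the members and 2911 bases for the neighbors. The member was the lower gene in 16 of the 16 pairs in which it had the shorter transcript and in 4 of the 7 in which it had the longer. The pairs in which the neighbor was lower include Mrpl49 (-0.41), next to the short ribosomal gene Fau (-0.86), and Mrpl36 (-0.48), next to Ndufs6 (-0.93), a complex I subunit, whose transcript of 757 bases is shorter than the 923 bases of Mrpl36. In the third pair of this kind Mrpl10 (-0.15) lies next to Lrrc46 (-0.20).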
